A study of Mus musculus with 6 samples.

Results

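The genes described here are 54 mouse genes that make ribosomes and trim nuclear RNA. They include the 10 Exosc subunits of the RNA exosome and genes of RNA polymerase I and its initiation factors. The rest belong to the small nucleolar RNA-protein particles (snoRNPs) and their chaperones, or are assembly factors of the small and large ribosomal subunits. All 54 were taken by symbol, and each matched a row among the 24594 gene IDs of the deposited count table. The set was proposed with the doxycycline-against-control differences of these libraries already known. Those differences are therefore a description for the 54 genes. No p-value is given for them, and where a gene is said to be lower or not to pass, this only describes its place in the test over the whole table and is no independent evidence. P-values are given for other genes of the same pathway.

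The libraries came from organoids, epithelial structures grown in gel from crypts of the adult proximal small intestine, in medium with EGF, Noggin and R-spondin1. All 6 libraries were from mice of the TetON-hYAP/H2B-mCherry genotype, in which doxycycline switches on a constitutively active human YAP and a red fluorescent histone. In the 3 control libraries the transgene was not induced, and in the 3 doxycycline libraries it was induced with 1 µg/ml for 48 h from passaging. YAP is the transcriptional coactivator that the Hippo pathway restrains. The series asks how YAP acts on the maturation of the intestinal epithelium. The labels name neither the promoter that drives the doxycycline-responsive activator nor the age of the mice, and they assign 1 individual to each sample of adult crypts without saying which individuals gave which library. No library had doxycycline without the transgene, so the drug and YAP cannot be told apart. P-values measure the spread between these 6 libraries, which may be partly technical.

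Ribosome production starts in the nucleolus, where RNA polymerase I transcribes the ribosomal DNA into a long precursor. The precursor is modified by snoRNPs, cut and folded by the small subunit processome, and carried on by a succession of large subunit factors, helicases and GTPases that leave the particle before its export. The RNA exosome, a ring of RNase PH-like subunits with a cap of RNA-binding subunits, trims the spacers from the 3′ end. Rapidly dividing cells, such as those of the intestinal crypt, make many ribosomes, and the transcription factor Myc is known to raise these genes.

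With doxycycline, 46 of the 54 genes were lower past the threshold of the test over the whole table (edgeR, adjusted p under 0.05), 0 were higher and 8 did not pass. Over all 12909 genes tested, 23.6% were lower and 21.7% higher by the same rule. Since the set was proposed from this contrast, nothing is read from that difference. The 54 log2 fold changes had a median of -1.55 and ran from -2.29 (Exosc2) to 0.44 (Heatr1), while the median of all genes tested was -0.08. In 40 genes the level was at least 2-fold lower. For 47 genes all doxycycline libraries lay below all control libraries, which was so for 31.3% of all genes tested. For 6 genes the groups overlapped, and Heatr1 alone was higher in every doxycycline library than in every control library. All 54 genes passed the filter on low counts, with 158 to 25196 counts over the 6 libraries. In bulk RNA, fewer cells of a type and less RNA per cell cannot be told apart.

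Levels are in CPM, read counts divided by library size and brought to a common total, with library sizes scaled by TMM, the usual correction for libraries that differ in composition. The libraries held 8533452 to 16803062 counts. Summed over the 54 genes, the control libraries held 2772, 2823 and 3489 CPM and the doxycycline libraries 1331, 1123 and 1137 CPM. Control replicate 3 stood apart: it was the highest control library for 39 of the 54 genes. Without it, 51 genes were lower, 1 (Heatr1) was higher and the median log2 fold change was -1.23. In that fit 35.1% of 13278 genes were lower. Without doxycycline replicate 2 the count of lower genes was 29 and without doxycycline replicate 3 it was 27, with medians of -1.46 and -1.45. Over the whole table, 3862 and 3836 genes were called in these fits, against 5850 with all libraries. The scaling mattered as well. With total counts as the only scaling, the median of all genes moved to -0.52 and that of the 54 genes to -1.99, and 50 were lower against 39.7% of all genes.

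**Figure D1:**
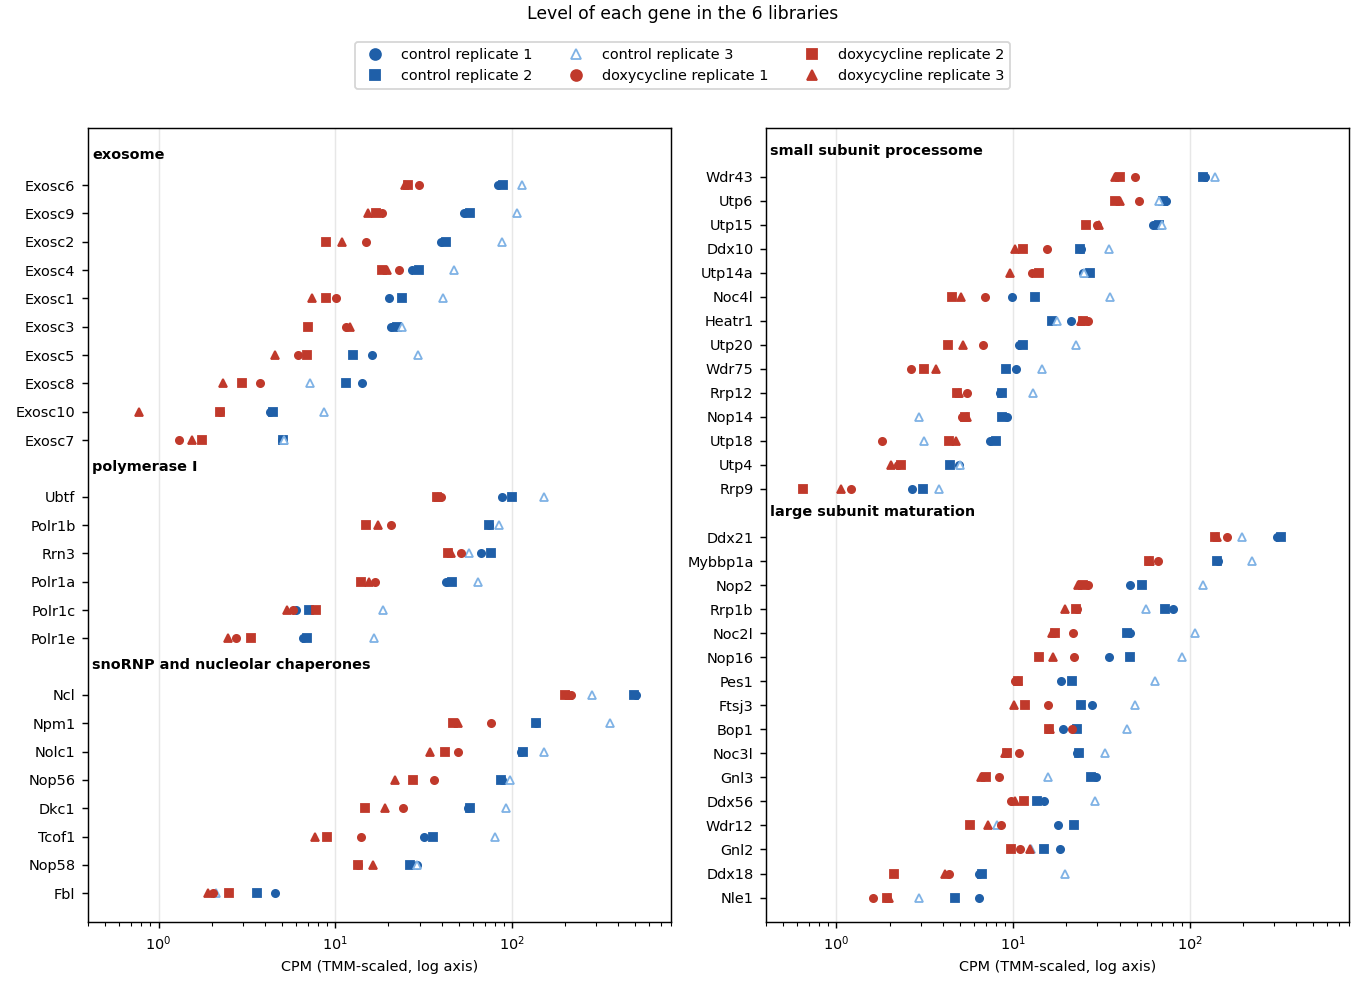
CPM of each of the 54 genes (rows, grouped by role and ordered by control mean) in the 6 libraries, on a log axis. Control libraries are blue (replicate 3 open and pale) and doxycycline libraries red. Red points lie left of all blue points for 47 genes and right of them for Heatr1.

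Promoter sequences were available for 45 of the 54 genes, as RefSeq windows (GRCm38.p6) from 250 bases before to 50 bases after each annotated start. They are shown because the genes moved together and because Myc and the DNA-binding partners of YAP have known core sites. The letters CACGTG, the E-box core that Myc binds with its partner Max and that reads the same on both strands, were in windows of 10 of the 45 genes (22.2%). Among all 10267 tested genes with a window the share was 11.7%, among all 27025 genes with a window 8.09%, and among all 32851 windows of this length 7.15%. Before the start alone, 4 of the 45 genes held it (8.89%, against 9.93% of tested genes), so the other 6 held it in the 50 bases after the start. The letters GGAATG or their reverse CATTCC, the core that TEAD proteins bind, were in windows of 4 of the 45 genes (8.89%), against 14.6% of tested genes and 14.7% of all windows. The GC box letters GGGCGG or CCGCCC were in windows of 37 of the 45 genes (82.2%), against 67.8% of tested genes and 35.7% of all windows. CCAAT or ATTGG was in windows of 18 (40.0%), against 43.0% and 37.4%. Each motif was searched on both strands and counted whether or not it overlapped another, and a match is a string of letters, not a site shown to be used.

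The 4 genes with CACGTG before the start are shown by the 100 bases that precede it, 5′ to 3′ on the gene's strand, with the match in capitals. The stretches are chr6:125131783-125131882 (+ strand) for Nop2, chr7:25659053-25659152 (+) for Exosc5, chr11:93885767-93885866 (-) for Utp18 and chr16:13780599-13780698 (+) for Rrn3.
Nop2: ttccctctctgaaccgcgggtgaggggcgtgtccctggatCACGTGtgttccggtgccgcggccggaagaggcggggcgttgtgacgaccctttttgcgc
Exosc5: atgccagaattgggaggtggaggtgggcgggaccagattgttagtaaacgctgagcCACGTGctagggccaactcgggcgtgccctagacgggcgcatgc
Utp18: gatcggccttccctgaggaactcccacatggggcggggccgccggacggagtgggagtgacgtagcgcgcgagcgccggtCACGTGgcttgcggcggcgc
Rrn3: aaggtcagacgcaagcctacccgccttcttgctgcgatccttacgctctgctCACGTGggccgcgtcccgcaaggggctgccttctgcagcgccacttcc
The match began 60 bases before the start in Nop2, 44 in Exosc5, 20 in Utp18 and 48 in Rrn3, which held another 215 bases before it.

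In the other 6 genes the match lay just inside the transcript, and only the 30 bases around it are shown.
Pes1: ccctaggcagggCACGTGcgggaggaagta
Mybbp1a: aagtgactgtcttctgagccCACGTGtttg
Wdr43: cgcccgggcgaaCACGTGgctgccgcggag
Utp20: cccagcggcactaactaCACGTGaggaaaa
Utp4: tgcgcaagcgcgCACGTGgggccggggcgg
Nle1: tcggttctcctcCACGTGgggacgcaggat
Counting the start as position 1, the match began at position 3 in Pes1, 16 in Utp4, 18 in Wdr43, 24 in Nle1, 38 in Utp20 and 41 in Mybbp1a. Of the 10 genes with CACGTG, 9 were lower with doxycycline and Utp18 did not pass, beside 46 of all 54 (85.2%), so the count says nothing about genes with these letters.

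The gene with the most negative fold change and the one with a positive fold change, which did not pass, are shown for contrast. Exosc2 held CATTCC at 2 places within the 180 bases before its start (chr2:31670535-31670714, + strand), in capitals here. The 100 bases before the start of Heatr1 (chr13:12395275-12395374, + strand) held neither CACGTG nor GGAATG or CATTCC, nor did the rest of its window.
Exosc2: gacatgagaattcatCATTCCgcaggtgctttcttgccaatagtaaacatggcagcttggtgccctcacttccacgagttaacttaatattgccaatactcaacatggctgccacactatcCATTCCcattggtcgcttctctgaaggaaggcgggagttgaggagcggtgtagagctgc
Heatr1: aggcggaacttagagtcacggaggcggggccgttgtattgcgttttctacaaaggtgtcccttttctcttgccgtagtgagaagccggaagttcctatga

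All 10 Exosc genes were lower with doxycycline, with no overlap between the groups and a median log2 fold change of -1.73. Exosc2, a cap subunit that binds RNA (Entrez 227715, chromosome 2, 31670715 to 31681352), had 39.6, 42.4 and 88.2 CPM in controls and 14.9, 8.87 and 10.9 CPM after doxycycline. Its log2 fold change of -2.29 (SE 0.379) was the most negative of the 54, and -1.82 without control replicate 3. Exosc9, a ring subunit of the RNase PH type, had 53.4, 58.1 and 106.8 CPM in controls and 18.3, 16.9 and 15.4 CPM after doxycycline (log2 fold change -2.11, SE 0.298). In both genes control replicate 3 was the highest library, and the groups lay well apart without it too. The annotated span of Exosc9 on chromosome 3 overlaps that of Ccna2, a cyclin gene that fell from 147.8, 167.1 and 226.2 CPM to 43.6, 47.0 and 47.2 CPM (edgeR adjusted p under the threshold), and without known strand use reads of the overlap cannot be told apart.

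Exosc6, another ring subunit, was the most abundant exosome gene per length. Its 83.2, 89.4 and 113.9 CPM in the control libraries stood against 29.7, 25.8 and 24.8 CPM after doxycycline (log2 fold change -1.83, SE 0.185). Per kilobase of exon, the control means of the Exosc genes ran from 0.841 CPM (Exosc7) to 72.0 CPM (Exosc6), an 85.6-fold range. The lengths merge all annotated exons of a gene, at 6013 bases for Exosc7 and 1326 bases for Exosc6. The range therefore mixes level with this measure of length. Before division by length, the control means of these genes were 5.06 and 95.5 CPM. The smallest differences were those of the cap subunit Exosc3 and the ring subunit Exosc4. Exosc3 had 20.7, 22.4 and 24.0 CPM against 11.5, 7.03 and 12.1 CPM, a log2 fold change of -1.13 (SE 0.246). Exosc4 had 27.3, 29.8 and 47.2 CPM against 22.8, 18.3 and 19.6 CPM, a log2 fold change of -0.78 (SE 0.249) that was -0.48 without control replicate 3. It no longer passed the threshold without control replicate 2 (-0.88) or without any doxycycline library (-0.86, -0.70 and -0.74).

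The remaining ring and cap genes fell between these. Exosc1, the third cap subunit, Exosc5, Exosc7 and Exosc8 had log2 fold changes of -1.67, -1.72, -1.71 and -1.88. Exosc8 differed from its partners in that control replicate 3 was the lowest control library (7.24 CPM, against 14.1 and 11.5 CPM), and it was at 3.74, 2.96 and 2.33 CPM after doxycycline. Exosc10, the nuclear exonuclease attached to the ring, was scarce, at 4.26, 4.46 and 8.65 CPM in controls and 2.22, 2.22 and 0.777 CPM after doxycycline. Its log2 fold change of -1.75 (SE 0.495) did not pass without any single doxycycline library (-1.95, -1.97 and -1.36).

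Another 17 genes, not among the 54, were listed as exosome cofactors, among them Dis3 and Dis3l, which encode catalytic subunits. Of these 17, 4 fell and 0 rose (edgeR, adjusted over all genes), with a median log2 fold change of -0.18. That is 23.5% lower, beside the background of 23.6%. The cytoplasmic exonuclease gene Dis3l fell from 13.1, 14.3 and 20.2 CPM to 5.05, 5.27 and 7.06 CPM (log2 fold change -1.44, SE 0.262, edgeR adjusted p = 0.00448). Dis3 fell from 29.97, 27.45 and 14.58 CPM to 9.50, 10.81 and 9.32 CPM (-1.28, SE 0.295, edgeR adjusted p = 0.0118). Zcchc8, a scaffold of the nuclear exosome targeting complex, fell from 67.8, 68.2 and 56.1 CPM to 40.7, 34.9 and 37.6 CPM (-0.76, SE 0.159, edgeR adjusted p = 0.0076). Summed over the 17 cofactors, the control libraries held 571.8 to 612.7 CPM and the doxycycline libraries 630.1 to 642.7 CPM. The 10 Exosc genes held 283.7 to 470.9 and 99.4 to 120.8 CPM. Without control replicate 3, 6 cofactors were higher and 5 lower. Whether the Exosc genes and the 17 listed cofactors differ was not tested.

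Of the 6 genes of RNA polymerase I and its initiation, 5 were lower and Polr1c did not pass (median log2 fold change -1.63). Polr1b, the second largest subunit (chromosome 2, 129100970 to 129128060), had the most even control libraries of the class, with 74.5, 74.0 and 85.0 CPM in controls and 20.8, 14.97 and 17.4 CPM after doxycycline (-2.13, SE 0.183, and -2.06 without control replicate 3). Polr1a, the largest subunit, had 42.3, 45.6 and 64.5 CPM against 16.8, 13.96 and 15.6 CPM (-1.72, SE 0.214). Ubtf, which binds along the ribosomal DNA and holds it open, had 88.0, 99.7 and 152.3 CPM against 39.9, 37.9 and 38.3 CPM (-1.55, SE 0.233). In these 3 genes the lowest control library was at least 2-fold above the highest doxycycline library.

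The others of this class differed less evenly. Polr1e had 6.60, 6.92 and 16.5 CPM against 2.73, 3.33 and 2.47 CPM (-1.80, SE 0.425). It did not pass without doxycycline replicate 1 (-1.77) or replicate 3 (-1.70). Rrn3, which recruits the polymerase to the promoter and whose own promoter held CACGTG at 2 places, had 66.5, 75.8 and 57.3 CPM against 51.5, 43.7 and 45.5 CPM. Its log2 fold change of -0.51 (SE 0.168) was the smallest among the genes past the threshold, and it did not pass with RLE scaling, without the filter on low counts or without any library other than control replicate 3 (-0.57 to -0.40). Polr1c, a subunit shared with RNA polymerase III, had 6.02, 7.15 and 18.6 CPM against 5.76, 7.76 and 5.37 CPM. The groups overlapped, and its log2 fold change of -0.74 was -0.05 without control replicate 3.

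Of 10 other subunits and initiation factors of RNA polymerase I that were tested, 2 fell and 0 rose (20% lower, beside 23.6% of all genes, with a median of -0.70, and -0.24 without control replicate 3). Another 3 listed names matched no row, and Polr2k did not pass the filter. Taf1d fell from 157.2, 147.5 and 106.9 CPM to 79.4, 62.8 and 65.3 CPM (-0.99, SE 0.202, edgeR adjusted p = 0.00741). Taf1a fell from 7.95, 8.46 and 14.1 CPM to 5.46, 4.07 and 3.46 CPM (-1.23, SE 0.321, edgeR adjusted p = 0.0192), a call lost without doxycycline replicate 2 (edgeR adjusted p = 0.0768) or 3 (0.083). Both proteins belong to the selectivity factor that marks the ribosomal promoter. RNA polymerase III transcribes the transfer RNAs and a short RNA of the large ribosomal subunit. Of its 22 listed genes, 7 fell and 0 rose (31.8%, median -0.51). Polr3e fell from 40.7, 40.2 and 43.4 CPM to 21.3, 20.9 and 15.7 CPM (-1.10, edgeR adjusted p = 0.00269) and Polr3d from 21.3, 24.4 and 33.7 CPM to 10.51, 8.60 and 11.2 CPM (-1.39, edgeR adjusted p = 0.00354).

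Of the 8 genes of snoRNPs and nucleolar chaperones, 7 were lower and Fbl did not pass (median log2 fold change -1.63). Tcof1, a scaffold that links polymerase I to snoRNPs, had the most negative value, with 31.7, 35.8 and 80.1 CPM in controls and 13.9, 8.97 and 7.70 CPM after doxycycline (-2.27, SE 0.430, and -1.73 without control replicate 3). Npm1, the abundant histone and ribosome chaperone nucleophosmin, had 136.8, 137.5 and 359.4 CPM against 75.8, 46.6 and 49.8 CPM (-1.88, SE 0.438). Its value rested more on control replicate 3 than most, being -1.25 without it, and it did not pass without doxycycline replicate 2 (-1.74) or 3 (-1.78). Ncl, nucleolin, was the most abundant of the 54 genes and went the other way in control replicate 3, with 506.6, 492.5 and 284.0 CPM against 216.8, 200 and 210.8 CPM (-1.03, SE 0.244). The doxycycline libraries of Ncl lay close together, at 209 ± 8.50 CPM (SD, n = 3), and its difference did not pass without any single one of them (-1.05, -0.99 and -1.03).

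Among the snoRNP cores, the box C/D proteins Nop56 and Nop58 differed in size. Nop56 had 87.7, 87.1 and 97.6 CPM against 36.4, 27.7 and 21.8 CPM (-1.67, SE 0.216), and Nop58 had 28.9, 26.4 and 29.1 CPM against 13.4, 13.5 and 16.4 CPM (-0.96, SE 0.171). Both had closely spaced control libraries, replicate 3 included. Fbl, the methyltransferase of the same particle, was listed at only 4.56, 3.61 and 2.11 CPM against 2.02, 2.50 and 1.91 CPM, with overlapping groups (-0.69, SE 0.357; -0.93 without control replicate 3). Per kilobase of exon its control mean was 0.814 CPM, against 22.2 CPM for Nop56. Dkc1, the pseudouridine synthase of the box H/ACA particle, had 56.7, 58.0 and 92.9 CPM against 24.0, 14.8 and 19.2 CPM (-1.84, SE 0.279). Nolc1, a chaperone of both kinds of particle, had a log2 fold change of -1.59. The spans of Ncl, Nop56 and Nop58, and those of Wdr43 and Gnl3 described further on, hold small nucleolar RNA genes in the annotation. In all, 21 of the 54 genes overlap another annotated gene, 17 of them among the 46 lower ones, and reads of such overlaps cannot be told apart here.

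Of 14 other snoRNP and assembly genes, 8 fell and 0 rose (57.1%, median -1.32). Gar1, a core protein beside Dkc1, fell from 19.5, 22.4 and 42.2 CPM to 6.06, 4.44 and 4.87 CPM (-2.45, SE 0.349, edgeR adjusted p = 0.00173). Naf1, which assembles the same particle, fell from 48.1, 43.4 and 38.7 CPM to 18.2, 12.7 and 16.9 CPM (-1.45, SE 0.198, edgeR adjusted p = 0.00138). In both genes every control library was at least 2-fold above every doxycycline library.

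**Figure D2:**
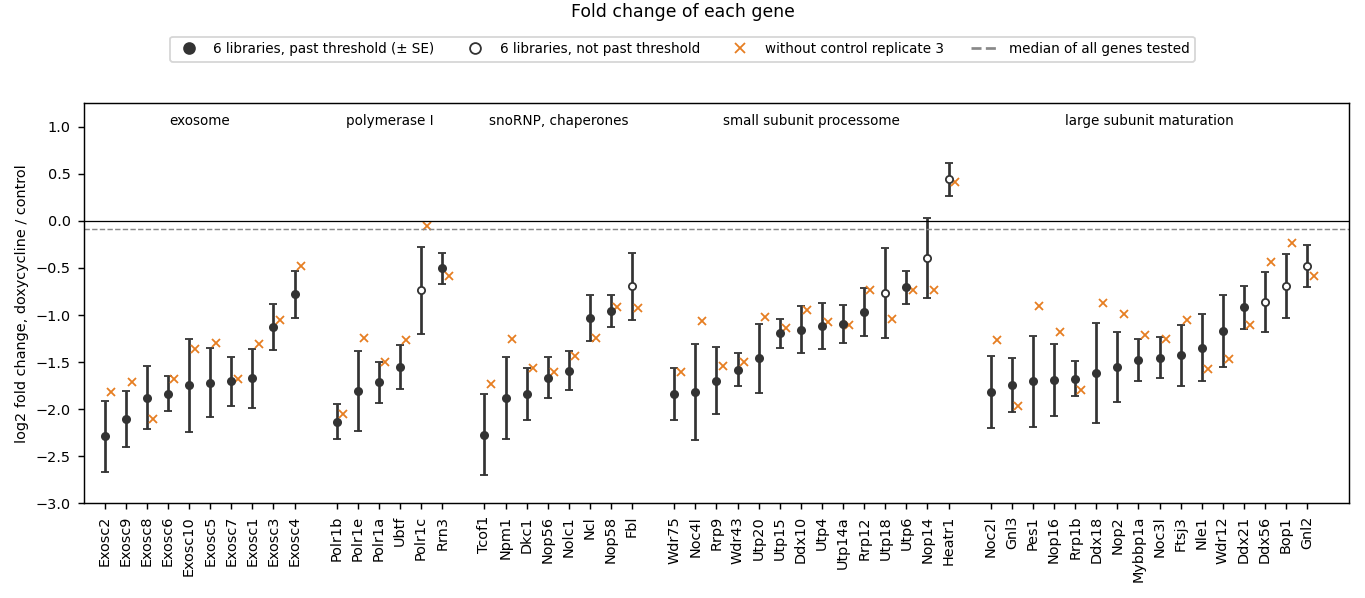
Log2 fold change (doxycycline over control) of each of the 54 genes, with SE bars, grouped by role. Filled points passed the threshold, open points did not, and crosses give the value without control replicate 3. The dashed line is the median of all genes tested (-0.08), and Heatr1 is the only point above 0.

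Of 14 genes of the small subunit processome, 11 were lower, 3 did not pass, and the median log2 fold change was -1.14. Wdr43, an early component that was the most abundant of the class, had 122.1, 118.9 and 138.7 CPM in controls and 49.2, 40.2 and 37.6 CPM after doxycycline (-1.58, SE 0.172). Wdr75, of the same early subcomplex, had 10.3, 9.15 and 14.5 CPM against 2.63, 3.14 and 3.67 CPM (-1.83, SE 0.276). Noc4l had 9.88, 13.4 and 35.4 CPM against 6.97, 4.53 and 5.08 CPM. Its log2 fold change of -1.82 (SE 0.509) was -1.06 without control replicate 3, and it did not pass without any single doxycycline library (-2.004, -1.69 and -1.75) or with limma-voom (-1.56).

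Heatr1 stood apart from the other early factors. It encodes a large scaffold that is needed for transcription and processing of the precursor (Entrez 217995, chromosome 13, 12395375 to 12438893). Its level was 21.4, 16.7 and 17.6 CPM in controls and 26.4, 24.96 and 24.4 CPM after doxycycline. The groups did not overlap, but the log2 fold change of 0.44 (SE 0.172) did not pass. It passed without control replicate 3 (0.41), and with total counts as the scaling it was -0.000369, so its direction rests on the scaling. Over all genes tested, 30.0% were higher in every doxycycline library than in every control library. Nop14 and Utp18 overlapped between groups, with control replicate 3 the lowest control library in both. Nop14 had 9.29, 8.69 and 2.92 CPM against 5.15, 5.36 and 5.51 CPM, and Utp18 had 7.42, 7.997 and 3.12 CPM against 1.82, 4.34 and 4.73 CPM. Their log2 fold changes were -0.40 and -0.76, and -0.74 and -1.04, past the threshold, without that library.

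The Utp proteins proper, which bind the spacer at the 5′ end of the precursor or act later in its cleavage, had log2 fold changes from -0.71 (Utp6) to -1.46 (Utp20), with Utp18, which did not pass, at -0.76. Utp15 had 61.6, 67.1 and 69.2 CPM against 29.7, 26.0 and 30.7 CPM (-1.19, SE 0.152). Utp4, Utp14a and Utp20 had log2 fold changes of -1.12, -1.09 and -1.46, and Utp6 had 73.6, 70.1 and 67.0 CPM against 51.5, 37.5 and 40.2 CPM. Rrp9, Ddx10 and Rrp12 had -1.70, -1.16 and -0.97. Rrp9 was the scarcest gene of the set in the doxycycline libraries, at 1.21, 0.647 and 1.06 CPM. Of these, Utp4, Utp6, Utp20 and Rrp12 no longer passed without doxycycline replicate 3 (-1.06, -0.65, -1.43 and -0.94). Utp6, Utp20 and Rrp12 did not pass without replicate 2 either (-0.61, -1.31 and -0.93), nor Rrp12 without replicate 1 (-1.02).

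Of 45 other small subunit factors, 25 fell and 0 rose (55.6%, median -0.86). Without control replicate 3, 34 fell and 2 rose. Esf1 fell from 40.8, 43.7 and 45.9 CPM to 18.6, 16.9 and 20.7 CPM (-1.21, SE 0.160, edgeR adjusted p = 0.00114). Utp25 fell from 17.4, 16.4 and 17.6 CPM to 6.77, 4.99 and 3.53 CPM (-1.76, SE 0.271, edgeR adjusted p = 0.00236). The control libraries of both genes lay close together, replicate 3 included.

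Of 16 genes of large subunit maturation, 13 were lower and 3 (Bop1, Gnl2 and Ddx56) did not pass, with a median log2 fold change of -1.47. Ddx21, an RNA helicase that also acts with polymerase I, was the most abundant, at 313.3, 327.4 and 198.2 CPM in controls and 162.7, 139.0 and 142.0 CPM after doxycycline (-0.92, SE 0.226). It did not pass without doxycycline replicate 2 (-0.87) or 3 (-0.88). Noc2l had 45.8, 44.1 and 106.8 CPM against 21.9, 17.3 and 16.5 CPM (-1.82, SE 0.380). Gnl3, the nucleolar GTPase nucleostemin found in stem and dividing cells, had 29.6, 27.7 and 15.8 CPM against 8.28, 7.03 and 6.57 CPM (-1.75, SE 0.284, and -1.97 without control replicate 3). Noc2l was highest and Gnl3 lowest in control replicate 3, and in both all control libraries lay above all doxycycline libraries.

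The PeBoW complex, which joins Pes1, Bop1 and Wdr12, did not show a single pattern. Pes1 had 18.6, 21.5 and 63.6 CPM against 10.3, 10.7 and 10.7 CPM, a log2 fold change of -1.70 that was -0.91 without control replicate 3. Bop1 had 19.2, 22.9 and 44.1 CPM against 21.4, 15.9 and 16.1 CPM, with overlapping groups (-0.69, and -0.23 without control replicate 3). Wdr12 had 17.9, 22.1 and 8.14 CPM against 8.49, 5.73 and 7.20 CPM, also with overlapping groups. There control replicate 3 was the low one (-1.17, and -1.47 without it). Pes1 and Wdr12 did not pass without any single doxycycline library or with limma-voom, nor Wdr12 without control replicate 1 or 2. Without doxycycline replicate 1, 2 or 3, Pes1 was at -1.68, -1.71 and -1.70 and Wdr12 at -1.30, -1.03 and -1.17, while Wdr12 was at -1.08 and -0.87 without control replicate 1 or 2.

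The methyltransferase gene Nop2, whose promoter stretch is shown above, had 46.0, 53.4 and 118.6 CPM against 26.5, 24.8 and 23.2 CPM (-1.55, and -0.99 without control replicate 3). Mybbp1a, a nucleolar repressor of transcription, had 145.1, 142.3 and 225.5 CPM against 66.0, 58.9 and 59.4 CPM (-1.48, SE 0.223). Rrp1b had 80.2, 72.0 and 56.4 CPM against 23.0, 22.7 and 19.6 CPM (-1.68, SE 0.189). These 3 genes were lower in every doxycycline library whichever way control replicate 3 lay. Nop16, Ddx18, Noc3l, Ftsj3 and Nle1 had log2 fold changes of -1.69, -1.61, -1.45, -1.43 and -1.35. Ddx18 was -0.88 without control replicate 3. Of these and Nop2, the calls of Nop2, Ddx18 and Nle1 were lost without any single doxycycline library, those of Nop16 and Ftsj3 without doxycycline replicate 2 or 3, that of Nle1 also without control replicate 1 (-1.04) and that of Ddx18 with limma-voom (-1.40). Without doxycycline replicate 2, for example, Nop2, Ddx18, Nle1, Nop16 and Ftsj3 were at -1.54, -1.35, -1.37, -1.54 and -1.37. The GTPase gene Gnl2 had 18.5, 14.9 and 12.6 CPM against 10.9, 9.71 and 12.5 CPM (-0.48), and the helicase gene Ddx56 had 15.02, 13.7 and 29.0 CPM against 9.70, 11.6 and 10.3 CPM (-0.86); both passed without control replicate 3 (-0.58 and -0.44).

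Of 50 other large subunit factors, 30 fell (60%, beside 23.6% of all genes) and 3 rose (6%, beside 21.7%), with a median of -1.004. Ddx51, a helicase, fell from 32.5, 31.0 and 29.1 CPM to 11.2, 9.06 and 10.4 CPM (-1.59, SE 0.173, edgeR adjusted p = 5.41e-04). Pelp1, of the complex that handles late nuclear steps, fell from 85.8, 85.2 and 97.7 CPM to 38.1, 33.9 and 34.9 CPM (-1.33, SE 0.149, edgeR adjusted p = 6.06e-04). The 3 that rose are named after their values were seen. Eif6, whose protein keeps the large subunit from joining the small one, rose from 101.4, 112.1 and 99.85 CPM to 179.6, 200.5 and 178.3 CPM (0.83, SE 0.149, edgeR adjusted p = 0.00406). Sbds, the gene altered in Shwachman-Diamond syndrome, rose from 49.3, 42.1 and 72.4 CPM to 104.1, 114.8 and 105.8 CPM (0.99, SE 0.225, edgeR adjusted p = 0.0114). Efl1, the GTPase that works with Sbds, rose from 39.7, 43.1 and 32.2 CPM to 57.2, 68.1 and 65.7 CPM (0.73, SE 0.173, edgeR adjusted p = 0.0127). In each, every doxycycline library lay above every control library, which was so for 30.0% of all genes tested. Other factors of late, cytoplasmic steps in the same list did not rise: Lsg1 fell (-1.08, edgeR adjusted p = 0.0303), a call lost without doxycycline replicate 1, 2 or 3 (0.0842, 0.115 and 0.0844). Nmd3 (-1.02) and Zfp622 (0.20) did not pass, though Nmd3 was lower without control replicate 2 (-1.30) and with total counts (-1.46), and Zfp622 was at -0.20 without control replicate 3. With total counts as the scaling none of the 3 passed (edgeR adjusted p = 0.0614 for Eif6, 0.0767 for Sbds and 0.189 for Efl1, at log2 fold changes of 0.39, 0.55 and 0.29). Without doxycycline replicate 2 the calls of Sbds (edgeR adjusted p = 0.0511) and Efl1 (0.0608) were also lost, and that of Efl1 without doxycycline replicate 3 (0.0574).

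Over the 6 lists of other pathway genes together, 76 of 158 tested fell (48.1%, beside 23.6% of all genes) and 3 rose (1.90%, beside 21.7%). Their median log2 fold change was -0.75, and 142 of the 158 were negative. Without control replicate 3, 107 fell, all 76 among them, and 13 rose. Without doxycycline replicate 2 or 3, 46 and 43 fell and 1 and 2 rose, while 3862 and 3836 genes were called over the whole table (5850 with all libraries). With total counts as the scaling, 123 fell and 0 rose. These lists were written down by function, with results on other genes of these libraries known.

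Of 79 genes for the proteins of the cytosolic ribosome itself, 39 fell and 0 rose by edgeR's test (49.4%, median log2 fold change -0.90), and 0 were higher at an unadjusted p under 0.05 or with DESeq2. Rps24 fell from 73.9, 69.1 and 65.7 CPM to 22.1, 19.97 and 21.0 CPM (-1.73, SE 0.148, edgeR adjusted p = 2.25e-04) and Rpl12 from 60.1, 54.1 and 72.1 CPM to 19.6, 22.8 and 18.4 CPM (-1.61, SE 0.182, edgeR adjusted p = 6.17e-04). The summed level was 3333 and 3327 CPM in control replicates 1 and 2, 6988 CPM in control replicate 3, and 2610, 2341 and 2339 CPM after doxycycline. Without control replicate 3, 63 fell, and without doxycycline replicate 1, 2 or 3 the count was 25, 21 or 16. In the same fits 9286, 4246, 3862 and 3836 genes were called over the whole table, against 5850 with all libraries. These genes have many near-identical processed copies in the genome, so their separate counts are uncertain.

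**Figure D3:**
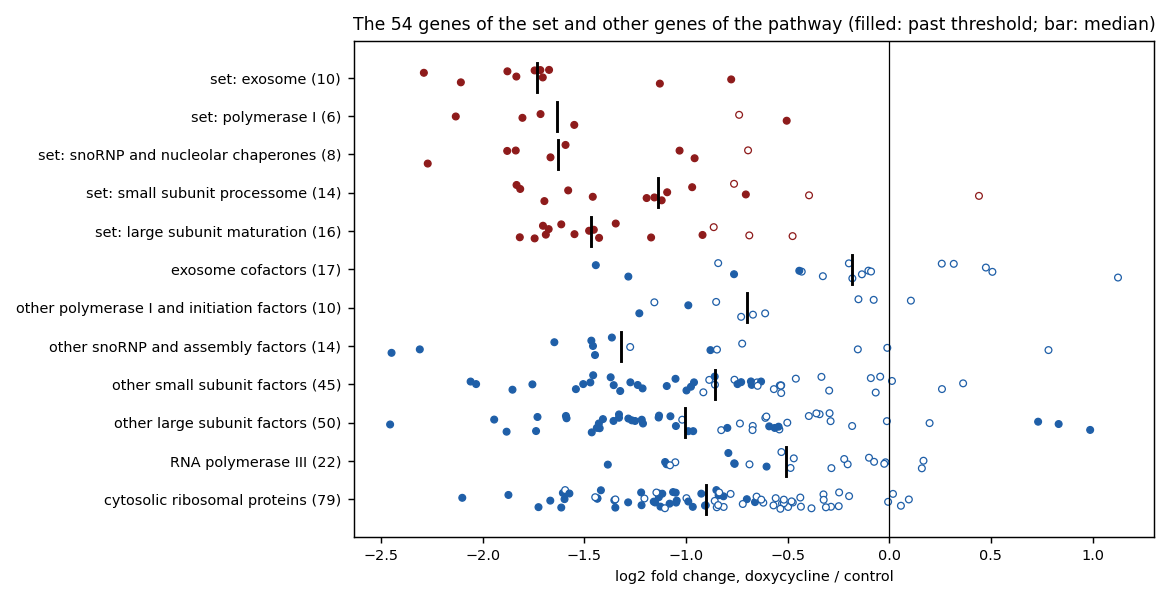
Log2 fold changes (doxycycline over control) of the 54 genes by role (red) and of the other pathway genes by list (blue), with the number tested in brackets. Filled points passed the threshold and black bars are medians, which run from -1.73 (exosome) to -0.18 (exosome cofactors). The 3 filled points right of 0 are Eif6, Sbds and Efl1.

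Control replicates 1 and 2 lay close together, and replicate 3 apart from both. Over the 54 genes the median coefficient of variation was 30.5% for the 3 control libraries, 6.04% for control replicates 1 and 2 alone, and 15.4% for the doxycycline libraries, of which replicate 1 was the highest for 37 genes. Control replicate 3 was at least 2-fold above the mean of the other controls in 15 genes, such as Pes1, Noc4l and Npm1, and at least 2-fold below it in 3 (Nop14, Utp18 and Wdr12). Over all genes tested, it lay above both other controls in 45.8% and below both in 46.2%. The log2 ratio of control replicate 3 to the mean of the other controls (0.1 CPM added) went with exon length, with a Spearman rho of -0.40 over the 54 genes and -0.41 over 12329 genes. These points share the same 3 libraries, and genes are not independent replicates. The log2 fold change itself had a rho with length of -0.02, and of -0.29 without control replicate 3. The part of this library in the results was otherwise not tested.

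**Figure D4:**
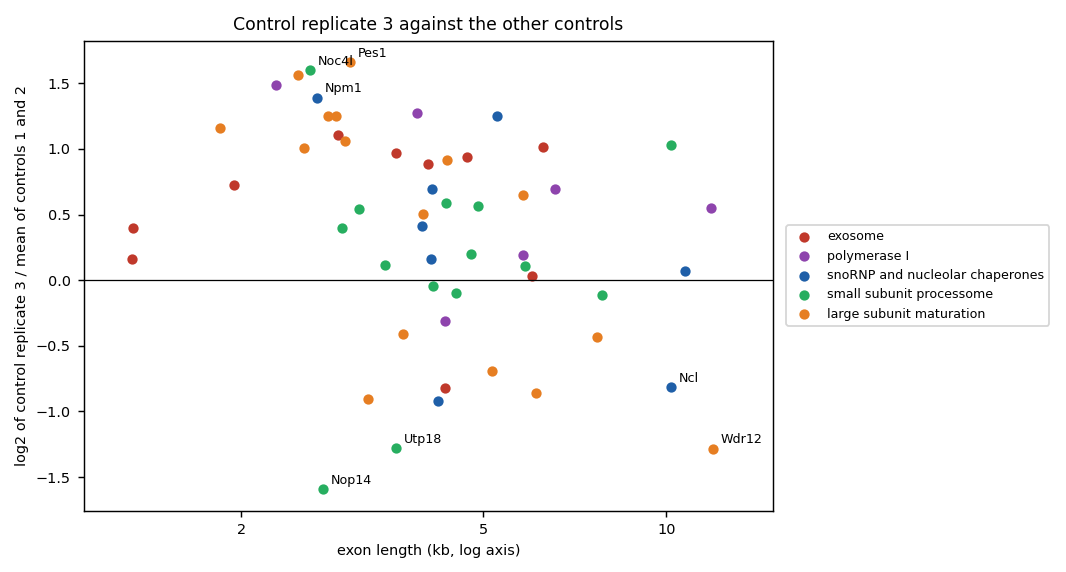
Log2 ratio of control replicate 3 to the mean of control replicates 1 and 2 (vertical axis) against exon length in kb (log axis) for the 54 genes, coloured by role. Most points lie above 0, with Pes1 highest (1.66) and Nop14 lowest (-1.59).

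Markers of the cells in the organoids moved with doxycycline in the same libraries. Of 20 genes of proliferating cells, 17 fell (85%, beside 23.6% of all genes) and 0 rose by edgeR's test. Their summed levels were 1924 to 2001 CPM in controls and 618.2 to 628.4 CPM after doxycycline. The even control sums hide differences in both directions, with control replicate 3 the highest control library for 17 of the 20 and the lowest for 3. Mki67, Cdc20 and Pcna did not pass. Mki67 had 884.2, 809.5 and 161.1 CPM in controls and 185.5, 246.5 and 235.7 CPM after doxycycline. In Mki67 and Cdc20 control replicate 3 lay below every doxycycline library. Without control replicate 3, 19 of the 20 fell. All 8 markers of crypt base stem cells fell, from a sum of 4072 to 5613 CPM to 105.2 to 117.2 CPM. Of 8 markers of intestinal epithelium, 5 rose (62.5%, beside 21.7% of all genes) and Cdx1 fell, with sums of 4614 to 5268 CPM and 17860 to 19050 CPM. Without control replicate 3, 7 rose. Most of the doxycycline sums came from the keratin genes Krt8, Krt18 and Krt19, which rose. Vil1 rose from a mean of 208.4 CPM to 500.8 CPM (edgeR adjusted p = 0.0152) and Cdh1 from 799.3 CPM to 1297 CPM (edgeR adjusted p = 0.018). In both the groups did not overlap. Epcam and Cdx2 did not pass, and Cdx1 fell from a mean of 292.3 CPM to 16.5 CPM. Each of the 8 had counts in every library, so the labelled epithelial origin was borne out, but the rise of their sum was mainly one of keratins. How much of the difference in ribosome genes goes with the share of dividing or stem cells was not tested. Mesenchymal markers summed to 0.154 to 1.006 CPM in controls and 0.370 to 0.606 CPM after doxycycline, with Col1a1, Dcn and Lum at 0 in all 6. Endothelial markers summed to 0.877 to 1.41 and 1.51 to 2.75 CPM, with Kdr at 0 in all 6. Immune markers summed to 20.8 to 42.7 and 27.1 to 27.4 CPM, most of it Csf1r, with Ptprc at 0 in all but 1 library.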

How the data were processed

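RNA was collected with a column kit and libraries were made with the TruSeq RNA kit and run on an Illumina NextSeq, per the labels' protocols. The authors deposited a table of whole-number read counts per Entrez gene for 6 libraries. The submitters' processing notes name build mm10. Which aligner and counter were used, and whether strand was, is not given in the sources used here. Exon lengths were those of all exons of a gene in the GENCODE annotation, merged. Symbols and spans came from RefSeq (GRCm38.p6), which named 24570 of the 24594 IDs. The other 24 held 2.878 to 4.431% of counts and went through the same filter and tests under their IDs.

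Genes with enough counts by edgeR's filterByExpr (12909) were fitted with edgeR 4.0.16 (R 4.3.3) in its quasi-likelihood test over both groups of 3, without a replicate block, with TMM scaling and Benjamini-Hochberg adjustment over all genes at 0.05. The steps were tested on simulated counts in which few genes changed and no library stood apart. That differs from these data, so the simulation does not cover the effect of control replicate 3. The 54 genes, the other lists and the markers were chosen with earlier results of these data known. By rule, in each role the most abundant gene, the 2 with the most negative and the 2 with the most positive log2 fold change were described library by library, and from each other list the 2 genes with the smallest adjusted p. Further genes were given library by library after their values were seen. Whether same-numbered libraries came from the same individual is not stated. Their deviations correlated at -0.299, 0.119 and -0.187. With groups of 3 and control replicate 3 apart, this cannot settle whether they were paired. Alternatives were RLE and total-count scaling, other filters, DESeq2 1.42.0, limma-voom (limma 3.58.1), a replicate block, a fold of 2, a threshold of 0.01 and each library left out.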

Additional observations from a re-analysis of the deposited data

How the results depend on the processing

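Of the 54 genes, 46 were lower. Over 13 alternative scalings, filters, tools and sets of libraries, 27 of these were lower in all 13, while 19 lost the call in at least 1. All 19 lost it without some doxycycline library and 4 of them without some control library. The 13 leave out the replicate block, the fold of 2 and the threshold of 0.01, with which 40, 16 and 28 of the 54 were lower. Over the 6 fits with a library left out, genes called ran from 3836 to 9286 (5850 with all libraries), lower genes of the 54 from 27 to 51 and higher from 0 to 1, their median log2 fold change from -1.631 to -1.228, lower genes of the other pathway lists from 43 to 107 and higher from 1 to 13, and lower cytosolic ribosomal protein genes from 16 to 63. With total counts as the scaling 123 other pathway genes were lower and 0 higher, 71 ribosomal protein genes were lower, the median of the 54 was -1.99, Heatr1 was at -0.000369 and Zfp622 at -0.246. Without 1 library Zfp622 ran from -0.1952 to 0.5482. DESeq2 called 5 other pathway genes higher. The fit with a replicate block, a pairing that the labels do not state, called 24 ribosomal protein genes lower and 40 of the 54. Against a fold of 2, 2112 genes passed, with 16 of the 54 lower, 12 other pathway genes lower and 0 higher, and 5 ribosomal protein genes lower. At a threshold of 0.01 these were 3477, 28, 44, 1 and 17. With 3 libraries a group and 1 control library apart, many calls rest on single libraries. The causes of these changes were not tested.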
